A study of Mus musculus with 20 samples.

Results

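Fos, Fosb, Jun, Junb, Jund, Egr1, Ier2, Atf3, Nr4a1 and Dusp1 are immediate early genes, and their RNA was followed library by library in 2 cell types of the mouse bone marrow (BM). These 10 genes, of 24315 listed in each table, were selected on their higher level in Dnmt3a-/- LSK than in WT LSK, so that comparison is given as a description and was not tested. All 10 passed the minimum mean of 1 FPKM (fragments mapped to a gene, corrected for its length and for the size of the library) in both cell types, as did 11952 genes in LSK and 10933 genes in MEP in all.

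LSK cells (lineage-negative, Sca1-positive, Kit-positive) hold the stem cells and earliest progenitors of the blood, and MEP cells are progenitors committed to megakaryocytes and erythroid cells. Both were sorted from the BM of C57BL/6 mice, and polyA RNA of each was sequenced in 10 libraries: 3 WT, 3 Dnmt3a-/-, 2 Bcor-/- and 2 Bcor-/-Dnmt3a-/-. Bcor encodes a corepressor of a Polycomb complex, and Dnmt3a encodes a DNA methyltransferase that sets new methylation. The study asked how loss of both genes leads to acute erythroid leukemia. The mutant mice carried Mx1-Cre, an interferon-inducible recombinase that is switched on with pIpC and is active in hematopoietic stem cells and in other tissues, and controls were mice with untargeted genes. The descriptions of all mutant libraries name Cre and those of the WT libraries do not, so Cre and the deletion cannot be told apart. Each mouse gave 1 library of each cell type, and the label of Bcor-/- replicate 1 names 2 mice in each cell type. The labels give no age or disease stage, and the study's text calls the double knockout mice of this experiment leukemic.

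The tables used here hold no read counts. From the steps between low values, depth relative to WT replicate 1 ran from 0.779 to 1.32 among LSK libraries and from 1 to 1.60 among MEP libraries. Replicates of WT, Dnmt3a-/- and Bcor-/- correlated across genes with a Pearson r of at least 0.971, while the 2 double knockout libraries correlated with 0.849 in LSK and 0.815 in MEP. The double knockout libraries also departed from their cell type label. Markers of LSK cells (13 genes, Kit and Cd34 among them) summed to 405 and 482 FPKM in double knockout LSK, against 1341 to 1548 in WT LSK. Markers of mature erythroid cells summed to 6076 and 23670 FPKM there, against 36.3 to 122 in WT LSK, and markers of B cells to 2443 and 1274 against 39.6 to 82.8. Counts of the 10 genes called in the double knockout are therefore given with both libraries and with each alone. In bulk RNA, fewer cells of a type and less RNA per cell cannot be told apart. Of the targeted genes, Dnmt3a had 11.3 to 16.9 FPKM in Dnmt3a-/- LSK and 10.4 and 10.9 in double knockout LSK against 16.1 to 19.9 in WT LSK, and Bcor had 22.4 to 23.2 in Bcor-/- LSK against 29.6 to 32.4. In double knockout LSK Bcor had 24.0 and 37.5 FPKM, the higher of them above every WT library. In MEP Bcor had 19.5 to 22.4 in Bcor-/- and 19.6 to 26.7 in the double knockout against 21.4 to 26.9 in WT, overlapping it. Dnmt3a in MEP had 2.56 to 5.40 in Dnmt3a-/-, below the 5.49 to 6.64 of WT without overlap, and 3.44 and 6.85 in the double knockout, on either side of WT. A value over the whole gene is a weak check of a deletion of some exons.

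Immediate early genes are transcribed within minutes of a signal, without new protein synthesis, from factors that are already present and are activated by MAP kinases, calcium or cyclic AMP. Fos and Jun proteins pair through leucine zippers to form AP-1, and Atf3 is a related bZIP factor that responds to stress. Egr1 is a zinc finger factor and Nr4a1 an orphan nuclear receptor, and both have been linked to quiescence of hematopoietic stem cells. Dusp1 is a phosphatase that switches MAP kinases off again, and Ier2 is a small nuclear protein.

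The stretch before the start site is shown for the genes found to hold a TGACG, the short core of the element bound by CREB and ATF factors. These are 6 of the 10 genes, and the feature did not enter the choice. The sequences are from RefSeq (build GRCm38.p6), the 150 bases before the annotated start, 5′ to 3′ on the strand of the gene. Capitals mark TGACG, on either strand. Of the 10 genes 8 had an entry, which Egr1 and Ier2 lack. The stretches lie at chr12:85473740-85473889 (plus strand) for Fos, chr7:19310046-19310195 (minus strand) for Fosb, chr8:84978749-84978898 (minus strand) for Junb, chr1:191183334-191183483 (minus strand) for Atf3, chr15:101266696-101266845 (plus strand) for Nr4a1 and chr17:26508473-26508622 (minus strand) for Dusp1.
Fos: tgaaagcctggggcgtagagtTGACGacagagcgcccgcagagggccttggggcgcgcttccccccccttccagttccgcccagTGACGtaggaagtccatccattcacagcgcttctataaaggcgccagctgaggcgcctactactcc
Fosb: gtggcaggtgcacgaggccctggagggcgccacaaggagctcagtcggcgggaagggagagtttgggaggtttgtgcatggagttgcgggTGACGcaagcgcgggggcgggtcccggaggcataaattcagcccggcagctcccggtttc
Junb: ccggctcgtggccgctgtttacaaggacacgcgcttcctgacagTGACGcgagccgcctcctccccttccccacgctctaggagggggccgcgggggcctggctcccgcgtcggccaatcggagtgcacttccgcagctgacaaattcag
Atf3: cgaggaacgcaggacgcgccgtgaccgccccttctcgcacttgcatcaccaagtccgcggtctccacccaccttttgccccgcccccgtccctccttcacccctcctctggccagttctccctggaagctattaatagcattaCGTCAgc
Nr4a1: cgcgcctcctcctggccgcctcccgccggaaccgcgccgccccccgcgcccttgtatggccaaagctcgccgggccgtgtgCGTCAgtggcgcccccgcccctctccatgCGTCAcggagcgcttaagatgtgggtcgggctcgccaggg
Dusp1: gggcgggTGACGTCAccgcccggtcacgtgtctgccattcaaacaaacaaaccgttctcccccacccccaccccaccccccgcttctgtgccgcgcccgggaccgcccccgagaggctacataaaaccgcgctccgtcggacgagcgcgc

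TGACG was present on either strand within 250 bases before the start in 6 of the 8 genes, against 17.8% of 32851 annotated promoters of the same length. The match closest to the start began 66 bases before it in Fos, 60 in Fosb, 106 in Junb, 40 in Nr4a1 and 7 in Atf3. Dusp1 held the full palindrome TGACGTCA, which contains TGACG on both strands, 143 bases before the start, and 1.55% of all promoters held one. Jun and Jund held no TGACG in this window. TGANTCA, the letters of the AP-1 site, were in 0 of the 8 windows and in 6.75% of all, and the CArG box, the letters of the site of serum response factor, in 0 of the 8 and in 1.47% of all. TATAAA was in 1 of the 8, in Fos, and in 12.4% of all. CG dinucleotides, the target of Dnmt3a, numbered 15 in Fos, 19 in Fosb, 15 in Jun, 20 in Junb, 24 in Atf3, 34 in Nr4a1 and 28 in Dusp1, against a median of 6 over all promoters, and 3 at the annotated Jund start. Jun, Jund, Junb, Atf3 and Dusp1 overlap other annotated genes, mostly on the opposite strand, and whether counting used the strand is not given in the sources used here, so their FPKM may hold reads of those genes. TGACG itself holds a CG, and its share over all promoters is not matched for CG content. Motif matches describe letters in a window and are not evidence that a factor binds there.

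In LSK of WT mice Fos was among the most abundant RNAs. It had a WT mean of 1411 FPKM ± 169 (SD, n = 3) and ranked 22 of 24315 genes by this length-corrected level. The 10 genes summed to 4652, 3198 and 3740 FPKM in the 3 WT libraries, 1.09%, 0.737% and 0.894% of all FPKM. In Dnmt3a-/- LSK they summed to 7051, 6588 and 6616 FPKM, 1.71%, 1.56% and 1.53%.

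**Figure D1:**
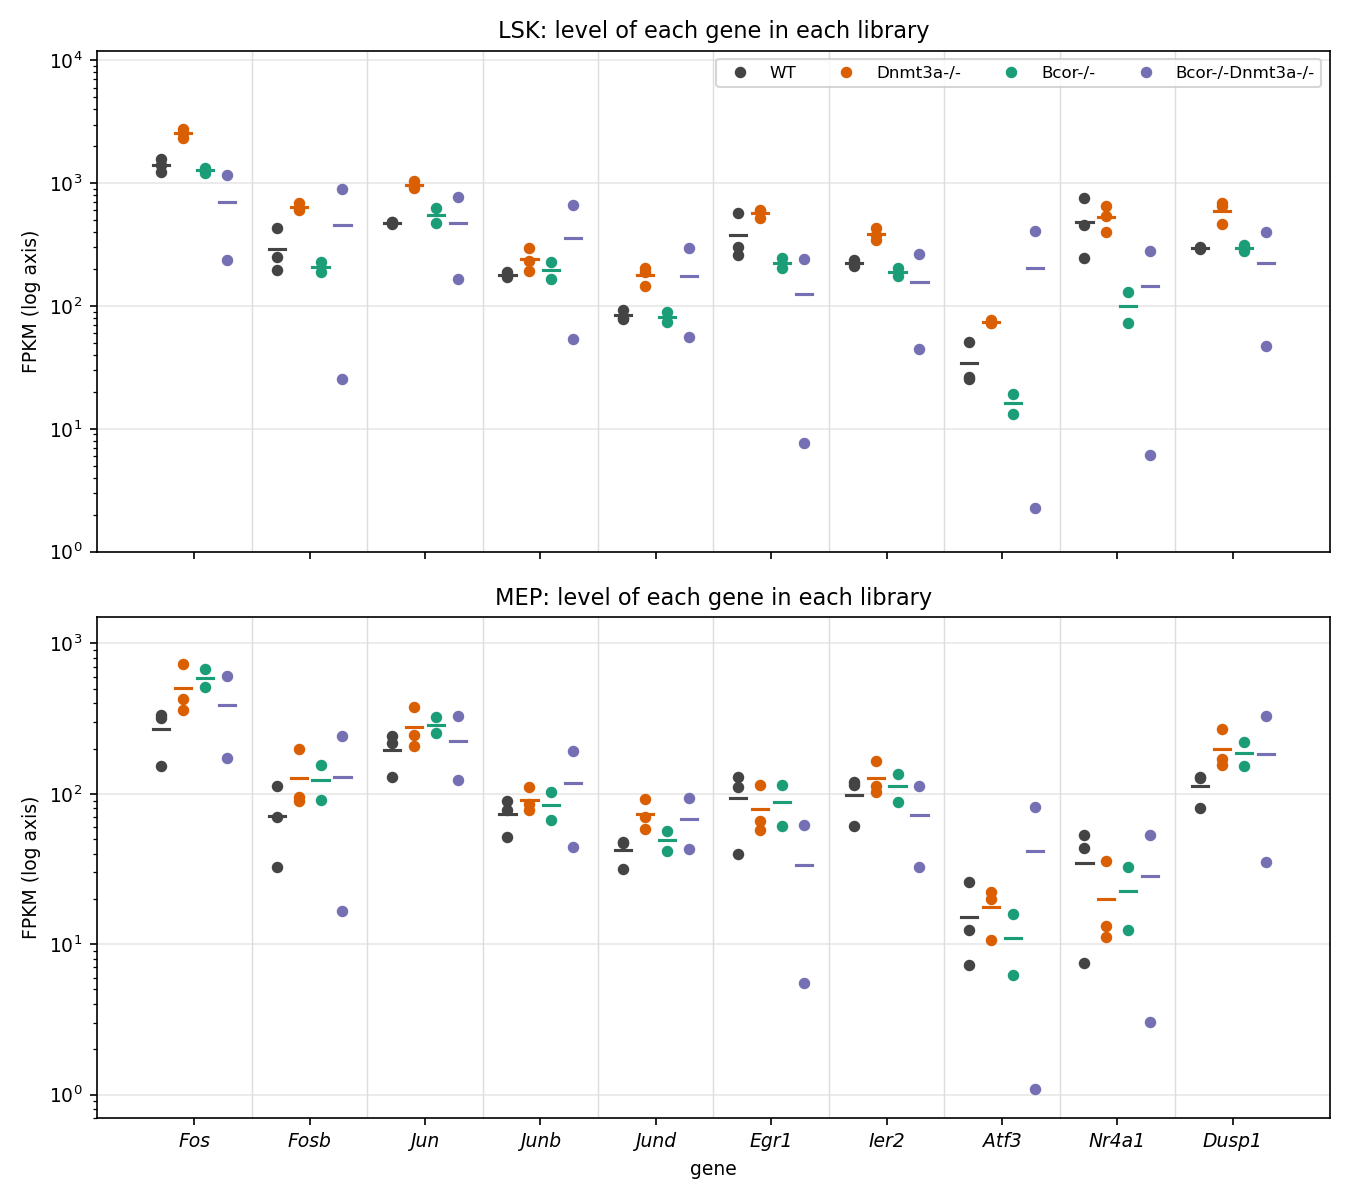
FPKM of each gene in each library (points, log axis) and the mean of each genotype (bars), in LSK above and MEP below; n = 3 WT, 3 Dnmt3a-/-, 2 Bcor-/- and 2 Bcor-/-Dnmt3a-/-. In LSK the Dnmt3a-/- points of 8 genes lie above all WT points, and for every gene 1 double knockout library is the lowest of the 10.

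The AP-1 subunits differed in how far Dnmt3a-/- LSK stood from WT. Fos had 1582, 1243 and 1407 FPKM in WT against 2747, 2590 and 2353 in Dnmt3a-/- LSK, a fold of the means of 1.82. Fosb had 428, 197 and 253 against 685, 606 and 616, a fold of 2.17. Both Fos proteins are the partners that Jun needs for its most stable dimers, and neither gene's groups overlapped. Jun had 481, 461 and 487 FPKM in WT against 1045, 952 and 918 in Dnmt3a-/- LSK, a fold of 2.04. Jund, the Jun gene least dependent on induction, had 78.8, 79.2 and 93.1 against 189, 145 and 202, a fold of 2.14. Junb, which can restrain Jun, had 190, 174 and 178 against 231, 192 and 297, a fold of 1.33. Of the AP-1 genes Junb was the closest to overlap, with its lowest Dnmt3a-/- library at 191.5 and its highest WT library at 190.5 FPKM. Atf3 had 50.7, 25.7 and 26.4 FPKM in WT against 72.7, 72.2 and 77.5 in Dnmt3a-/- LSK, a fold of 2.17.

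The other 4 genes split. Dusp1 had 289, 298 and 302 FPKM in WT against 647, 687 and 465 in Dnmt3a-/- LSK, a fold of 2.02, and Ier2 had 226, 212 and 236 against 377, 342 and 432, a fold of 1.71. Egr1 had 572, 261 and 304 against 520, 600 and 605, and Nr4a1 had 754, 248 and 454 against 537, 403 and 649. The groups of Egr1 and Nr4a1 overlapped, with WT replicate 1 above the lowest Dnmt3a-/- library for both, and their folds of the means were 1.52 and 1.09. In all, 8 of the 10 genes stood above WT with no overlap, the pattern they were chosen by, while 4.63% of all tested genes did so. Markers of neutrophils (9 genes) summed to 3277, 12910 and 3276 FPKM in WT and to between 2418 and 3542 in Dnmt3a-/- LSK. Those of monocytes and macrophages summed to 149 to 398 and 114 to 174, and those of LSK cells to 1341 to 1548 and 1383 to 1525. None of the 9 neutrophil markers had a log2 difference above 0 (median -1.09, 3 without overlap). The same held for the 11 monocyte and macrophage markers (median -0.54, 1 without overlap), while all 7 B cell markers were above 0 (median 0.48). Markers of megakaryocytes and platelets (7 genes) summed to 105 to 125 FPKM in WT LSK and 141 to 156 in Dnmt3a-/- LSK, and markers of T and NK cells to 213 to 241 and 155 to 201, without overlap in either case. WT replicate 2, the library with the most neutrophil RNA of the 3, was the lowest of the WT libraries for 8 of the 10 genes, and the part of these markers in the comparison was not tested.

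MEP cells of the same mice are a readout that did not enter the choice. Jund was the only one of the 10 genes called. It had 47.7, 31.6 and 47.5 FPKM in WT against 92.1, 70.5 and 58.7 in Dnmt3a-/- MEP, a log2 fold change of 0.79 (SE 0.304, limma adjusted p = 1, exact permutation p = 0.1). A gene was called where limma gave an unadjusted p under 0.05 and the fold exceeded 1.5, and 0.201% of all tested genes were called higher. Fos had 320, 153 and 337 FPKM in WT against 736, 424 and 361 in Dnmt3a-/- MEP, a log2 difference of 0.92 (SE 0.498, limma adjusted p = 1, exact permutation p = 0.1). Dusp1 had 130, 80.4 and 127 against 272, 170 and 154, a log2 difference of 0.80 (SE 0.683, limma adjusted p = 1, exact permutation p = 0.1). Fos, Jund and Dusp1 were the 3 genes whose groups did not overlap, all higher in Dnmt3a-/-, against 5.12% of all tested genes, and an exact permutation test of 3 against 3 cannot give a p below 0.1.

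The remaining 7 genes overlapped between Dnmt3a-/- and WT MEP. Fosb had 113, 32.4 and 69.7 FPKM in WT against 198, 89.3 and 95.2 in Dnmt3a-/- MEP, and Jun had 242, 129 and 219 against 376, 247 and 208. Junb had 90.1, 51.4 and 77.5 against 111, 85.6 and 77.9. Ier2 had 115, 61.4 and 119 against 165, 113 and 103. These 4 genes had log2 differences of 0.34 to 0.89, each with a limma adjusted p of 1. Egr1 had 129, 39.8 and 111.7 against 115, 57.8 and 65.7, Nr4a1 had 53.3, 7.45 and 43.5 against 35.7, 11.1 and 13.2, and Atf3 had 25.9, 7.22 and 12.4 against 22.1, 10.6 and 20.1. Egr1 and Nr4a1 were thus the only members with a negative log2 difference in MEP, -0.13 and -0.56 (exact permutation p = 0.9 and 0.7). In WT MEP replicate 2 all 10 genes were at their lowest among the WT libraries, and without it the log2 fold change of Jund was 0.60 and its call was lost (limma adjusted p = 0.888, with a range of 0.723 to 1 over all alternatives). In that library markers of megakaryocytes and platelets summed to 90.6 FPKM against 282 and 346 in the other WT MEP libraries, mature erythroid markers to 923 against 398 and 405, and LSK markers to 123 against 183 and 260. In Dnmt3a-/- MEP the same sums were 150 to 342, 541 to 737 and 109 to 218 FPKM, and their part in the comparison was not tested. Without Dnmt3a-/- replicate 1 or 2 the call of Jund was lost too, with log2 differences of 0.62 and 0.81. When only WT and Dnmt3a-/- entered the fit, so that the wide spread of the double knockout libraries did not, Fos, Jund and Dusp1 were called (each with a limma adjusted p of 0.839), and 0.814% of all genes.

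**Figure D2:**
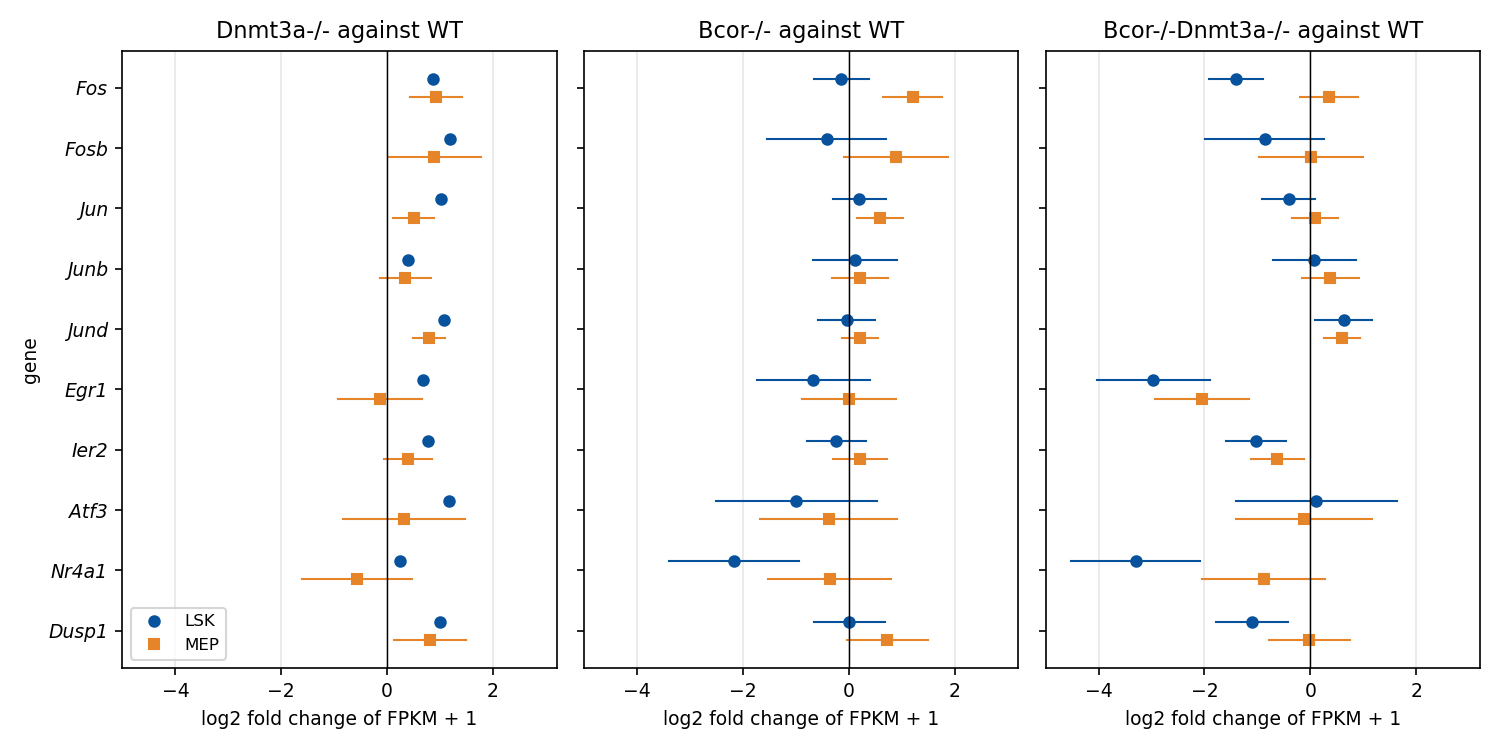
Log2 fold change of FPKM + 1 against WT for each gene (rows) in LSK (circles) and MEP (squares), 1 panel per mutant genotype, n as in the plot of levels; lines are ± 1 SE of limma's fit, not drawn for LSK of Dnmt3a-/-, on which the genes were chosen. In the Bcor-/- panel Fos lies at -0.14 in LSK and at 1.20 in MEP, and in the double knockout panel Egr1 lies below 0 in both cell types.

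In Bcor-/- LSK the Fos and Jun genes overlapped WT, and the fold of the means was lowest for Nr4a1, at 0.208. Nr4a1 had 72.9 and 129 FPKM against 754, 248 and 454 in WT, a log2 difference of -2.17 (SE 1.22, limma adjusted p = 0.312, exact permutation p = 0.1). Egr1 had 202 and 247 FPKM against 261 to 572 in WT, and Atf3 had 13.1 and 19.2 against 25.7 to 50.7. Ier2 had 205 and 176 FPKM against 212 to 236. These 4 genes were below WT with no overlap, against 27.0% of all tested genes. Fos had 1336 and 1216 FPKM, Fosb 188 and 229, Jun 629 and 474, Junb 228 and 166, Jund 90.0 and 73.4, and Dusp1 317 and 282, all overlapping WT, with log2 differences of -0.42 to 0.20. None of the 10 genes was called by limma, none had an unadjusted p under 0.05, and 13.2% of all genes were called. When only Bcor-/- and WT entered the fit, Atf3 and Nr4a1 were called lower (limma adjusted p = 0.0838 and 0.0345), with 16% of all genes called in either direction. Without double knockout replicate 1 or 2 the calls were Egr1, Atf3 and Nr4a1, all lower, against 8.31% of all genes. This comparison shares its 3 WT libraries with the one that chose the genes. Markers of neutrophils summed to 16130 and 23040 FPKM in Bcor-/- LSK against 3276 to 12910 in WT, and markers of LSK cells to 1008 and 701 against 1341 to 1548. Of 12 MEP markers 4 were called higher, Car1, Klf1, Epor and Gata1, by 2.91, 2.32, 1.65 and 1.14 on the log2 scale (limma adjusted p = 0.0111, 0.0214, 0.0201 and 0.0395). Called too were 2 of 7 mature erythroid markers, higher, and 4 of 6 mast cell and basophil markers, lower. The part of these changes in the values was not tested.

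In Bcor-/- MEP Fos, Jun and Dusp1 lay above every WT library, and the other 7 genes overlapped WT. Fos had 513 and 674 FPKM against 320, 153 and 337 in WT, a log2 difference of 1.20 (SE 0.556, limma adjusted p = 0.943, exact permutation p = 0.1). Jun had 255 and 323 against 242, 129 and 219, and Dusp1 had 152 and 220 against 130, 80.4 and 127. Those 3 genes were above WT with no overlap, against 14.7% of all tested genes. Fosb had 91.1 and 155 FPKM, Junb 66.7 and 103, Jund 41.8 and 56.2, Egr1 61.1 and 115, Ier2 88.5 and 136, Atf3 6.22 and 15.8 and Nr4a1 12.4 and 32.6, and all of these overlapped WT. For each of the 10 genes Bcor-/- replicate 2 was higher than replicate 1. Again limma called none of the 10 and none had an unadjusted p under 0.05, with 2.76% of all genes called. With only Bcor-/- and WT in the fit, or without double knockout replicate 1 or 2, Fos and Dusp1 were called higher (limma adjusted p = 0.322 and 0.387 in the first of these). Of all genes 4.1% were called in either direction in the first, and 1.86% were called higher in the others. Quantile normalization called Fos (limma adjusted p = 0.775). Markers of mature erythroid cells summed to 397 and 277 FPKM in Bcor-/- MEP against 398 to 923 in WT, with 4 of 7 tested below WT without overlap and none called. Of 9 neutrophil markers 3 were called higher, Elane, Mpo and Prtn3, by 2.54, 2.19 and 2.02 on the log2 scale (limma adjusted p = 0.605, 0.885 and 0.862), and 2 lower, and the part of either list in the values was not tested.

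The difference between the cell types was tested directly, as the LSK minus the MEP value of each mouse, which cancels the separate scaling of the tables. The Bcor-/- effect was lower in LSK than in MEP for Fos (log2 difference of the effects -1.34, SE 0.387, limma adjusted p = 0.136), Fosb (-1.31, SE 0.458, adjusted p = 0.189) and Dusp1 (-0.72, SE 0.318, adjusted p = 0.276). All 10 genes had a negative difference, from -0.11 for Junb to -1.81 for Nr4a1. The 3 genes were called against 4.81% of all tested genes called lower and 10.8% called in either direction. No member passed the adjusted p. Without pairing by mouse none of the 3 was called (limma adjusted p = 0.532, 0.813 and 0.856). Dusp1 lost its call under 10 of 20 alternatives, with log2 values from -1.07 to -0.37, Fosb under 4 and Fos under 3. Markers of LSK cells had a median difference of -1.42 in the same test, with 5 of 11 called lower, and markers of mast cells and basophils one of -0.80, with 2 of 6 called lower, against a median of 0.02 over all genes. Medians were positive for markers of mature erythroid cells (1.76), neutrophils (0.87) and monocytes and macrophages (0.69), with 1 neutrophil marker called higher. The part of these markers in the result was not tested. Without Bcor-/- replicate 2 no member was called, and the difference of Fos was then -1.08 (limma adjusted p = 0.669, with a range of 0.0377 to 0.669 over all alternatives). Leaving out WT replicate 2 kept only Fos, and leaving out WT replicate 3 or Dnmt3a-/- replicate 3 kept Fos and Fosb. Nr4a1 was called in addition without Dnmt3a-/- replicate 1 or without double knockout replicate 1. For Dnmt3a-/-, whose LSK values chose the genes, the difference was -0.06 for Fos, 0.19 for Dusp1, 0.30 for Fosb and 0.82 for Egr1, given without a test.

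The double knockout libraries gave the widest range of all. Replicate 1 had the lowest value of the 10 LSK libraries for all 10 genes and of the 10 MEP libraries for 8 genes, while replicate 2 had the highest value for 4 genes in LSK and for 6 in MEP. Atf3 had 2.25 and 405 FPKM in double knockout LSK, a ratio of 180, and 1.09 and 81.9 in MEP, a ratio of 75.3. Nr4a1 had 6.09 and 283 in LSK and 3.02 and 53.6 in MEP, and Fosb had 25.4 and 891 in LSK and 16.6 and 242 in MEP. Replicate 2 exceeded replicate 1 for every gene, by 4.72 to 180 times in LSK and 2.17 to 75.3 times in MEP. Of all tested genes, 2.65% in LSK and 10.3% in MEP had a ratio of FPKM + 1 at least as large as the lowest of the members.

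**Figure D3:**
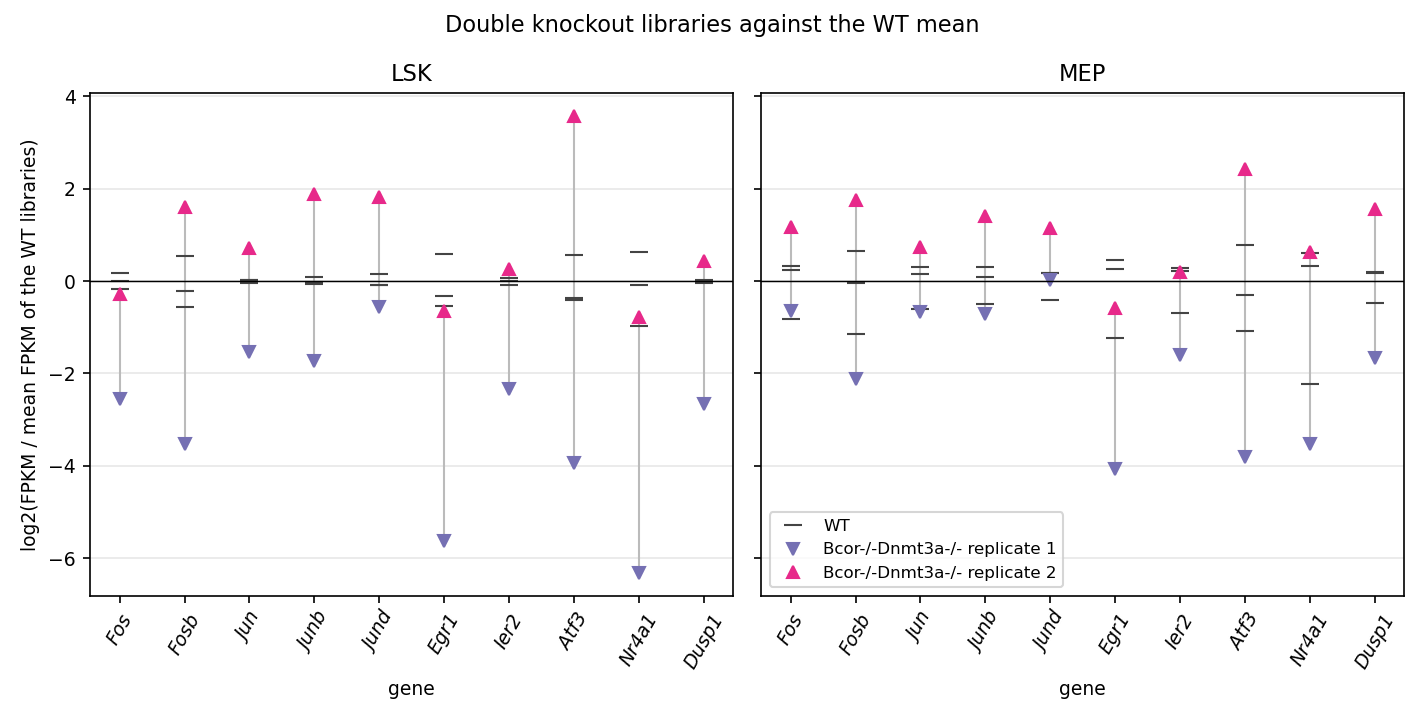
Log2 ratio of FPKM to the WT mean for each gene in the 2 double knockout libraries (triangles, joined by a line) and in the 3 WT libraries (dashes), in LSK (left) and MEP (right). Replicate 1 lies below every WT library for 10 genes in LSK and 8 in MEP, and replicate 2 above every WT library for 7 and 8.

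For the Jun genes in LSK, the values of the double knockout replicates were 165 and 778 FPKM for Jun, 54.2 and 663 for Junb and 56.3 and 297 for Jund, on either side of WT. Dusp1 had 46.9 and 398 FPKM and Ier2 44.7 and 267. Fos and Egr1 differed from this pattern, since even replicate 2 was below WT. Fos had 239 and 1170 FPKM against 1243 to 1582 in WT, a log2 fold change of -1.41 (SE 0.514, limma adjusted p = 0.0699, exact permutation p = 0.1). Egr1 had 7.63 and 242 against 261 to 572, a log2 fold change of -2.97 (SE 1.07, limma adjusted p = 0.0667, exact permutation p = 0.1). Nr4a1 was also called lower, with a log2 fold change of -3.29 (SE 1.22, limma adjusted p = 0.0725, exact permutation p = 0.2), although replicate 2, at 283 FPKM, exceeded WT replicate 2. These 3 genes were the only ones of the 10 called, all lower, against 13.3% of all tested genes, and the WT libraries are again those of the choice. Quantile normalization called Ier2 lower in addition (-1.25, limma adjusted p = 0.102). Without replicate 1 of the double knockout the log2 difference was -0.26 for Fos, -0.56 for Egr1 and -0.63 for Nr4a1, none called, and Fosb, Jun, Junb, Jund and Atf3 were called higher, against 20.6% of all genes. Without replicate 2 instead, 9 of the 10, all but Jund, were called lower, against 15.5% of all genes. Fosb, Jun, Junb and Atf3 thus changed direction with the library left out. In these fits the lone library is assumed to vary like the other groups. Without WT replicate 1 none of the 10 was called, and without WT replicate 3 only Egr1. When only WT and the double knockout entered the fit, Fos, Egr1 and Nr4a1 all lost their calls (limma adjusted p = 0.230, 0.228 and 0.231), and 24.2% of all genes were called.

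Against Bcor-/-, which leaves out the WT libraries of the choice, none of the 10 genes was called in double knockout LSK and none had an unadjusted p under 0.05 in limma, with 30.6% of all genes called. Fos came closest, with a log2 difference of -1.27 (SE 0.563, limma adjusted p = 0.120). Quantile normalization and median centring called Fos lower (limma adjusted p = 0.0967 and 0.0939). Without replicate 1 of the double knockout 5 genes were called higher (Fosb, Junb, Jund, Atf3 and Nr4a1) against 21.4% of all genes, and without replicate 2 the 9 other than Jund were called lower against 16.3%.

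In double knockout MEP only Egr1 was called against WT. It had 5.54 and 62.1 FPKM against 129, 39.8 and 111.7, a log2 fold change of -2.05 (SE 0.885, limma adjusted p = 0.106, exact permutation p = 0.3), and 12.4% of all tested genes were called lower. Fos had 173 and 611 FPKM, Jun 124 and 329, Junb 44.3 and 193 and Jund 43.2 and 93.6. Ier2 had 32.6 and 113 FPKM and Dusp1 35.3 and 331. Egr1 lost its call without replicate 1 of the double knockout (log2 difference -0.42, limma adjusted p = 0.618, with a range of 0.00276 to 0.618 over all alternatives) and without any 1 of 7 other libraries, WT replicates 1 and 3 among them. It also lost it when only WT and the double knockout entered the fit (limma adjusted p = 0.255). Without replicate 1 of the double knockout, Fos, Fosb, Junb, Jund, Atf3 and Dusp1 were called higher, against 23.4% of all genes, and without replicate 2 Fosb, Egr1, Ier2, Atf3, Nr4a1 and Dusp1 were called lower, against 14%, so Fosb, Atf3 and Dusp1 changed direction. Against Bcor-/- MEP none of the 10 was called and none had an unadjusted p under 0.05 in limma, with 27.9% of all genes called. There, leaving out replicate 1 called Junb, Jund and Atf3 higher against 22.6% of all genes, leaving out replicate 2 called 8 genes lower against 13.5%, and quantile normalization called Egr1 lower (limma adjusted p = 0.112). Markers of monocytes and macrophages summed to 1551 and 804 FPKM in double knockout LSK and to 902 and 233 in MEP, with C1qa at 360 and 7.38 in LSK and at 174 and 0.616 in MEP, so replicate 1, low in immediate early RNA, was the one high in these genes. In WT MEP the monocyte and macrophage markers summed to 24.8 to 36.5 FPKM. B cell markers were also higher in replicate 1, with 1881 and 146 FPKM in double knockout MEP against 20.6 to 111 in WT. Mature erythroid markers ran the other way, with 3964 and 95000 FPKM in MEP against 398 to 923 in WT. So did neutrophil markers in MEP, with 6781 and 15260 against 311 to 737.5, while in LSK they had 8211 and 8161. The part of these markers in the values was not tested.

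Replicate 1 of the double knockout was below replicate 2 for each gene in both cell types, and the LSK minus MEP difference compares the cell types within each mouse. The double knockout effect was lower in LSK than in MEP for Fos (log2 difference of the effects -1.76, SE 0.387, limma adjusted p = 0.0176), Dusp1 (-1.09, SE 0.318, adjusted p = 0.0415) and Nr4a1 (-2.41, SE 0.871, adjusted p = 0.0767). These were the 3 members called, against 16.7% of all tested genes called lower and 28% called in either direction. Fos and Dusp1 also passed the adjusted p of 0.05, as did 11.0% of all genes in this direction and 20% in either. These counts are near the shares in either direction and are not read as a result about the members. Over all alternatives the adjusted p ran from 0.0134 to 0.357 for Fos and from 0.0389 to 0.545 for Dusp1, and Dusp1 lost its call without pairing by mouse and with 1 variance per genotype. Both stayed called without either double knockout library, while Nr4a1 was lost without replicate 1 (-1.63, limma adjusted p = 0.229, with a range of 0.0320 to 0.522 over all alternatives) and without WT replicate 2. Without double knockout replicate 1 Atf3 was called in the other direction, with a higher effect in LSK, and without replicate 2 Fosb and Egr1 were called lower in addition, with 37.2% and 36.8% of all genes called in either direction. In the same test markers of LSK cells had a median difference of -2.22, with 9 of 11 called lower, those of neutrophils -2.97, with 6 of 9, those of mast cells and basophils -2.45, with 5 of 6, and those of monocytes and macrophages -1.95, with 6 of 10, while the median of all genes was -0.03. The part of these markers in the result was not tested.

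Every member had a higher FPKM in LSK than in MEP in each of the 10 pairs of libraries from 1 mouse or pool. The tables were normalized separately, so these ratios are a description. Nr4a1 had the widest range, with LSK over MEP from 2.01 to 49.1, followed by Egr1 with 1.38 to 10.4. Fos ranged from 1.38 in a double knockout to 8.13 in a WT mouse. For 3 of the 10 genes, named after their values were seen, the 4 ratios in mice without Bcor were all below the 6 in mice with Bcor, at 1.38 to 2.61 against 3.74 to 8.13 for Fos, 2.01 to 5.87 against 10.4 to 49.1 for Nr4a1 and 1.20 to 2.08 against 2.22 to 4.03 for Dusp1. For the other 7 genes they overlapped, and 3 of the 6 ratios in mice with Bcor rest on the Dnmt3a-/- LSK values that chose the genes. The share of all genes with such a separation was not counted, so it is not read as a trait of these 3 genes. Jund, with 1.31 to 3.45, and Junb, with 1.22 to 3.81, had narrower ranges.

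**Figure D4:**
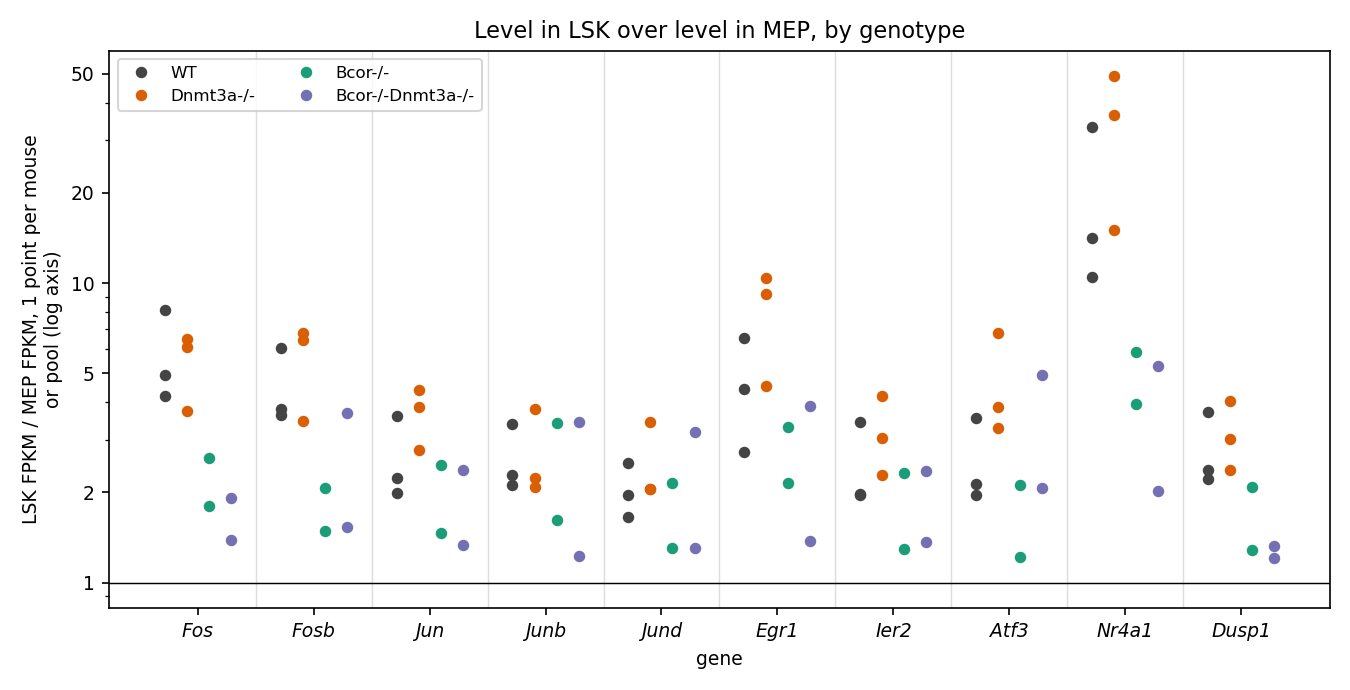
FPKM in LSK divided by FPKM in MEP of the same mouse or pool (points, log axis) for each gene, coloured by genotype; the line marks a ratio of 1. All points lie above 1, and for Fos, Nr4a1 and Dusp1, unlike the other 7 genes, the points of Bcor-/- and double knockout mice lie below those of WT and Dnmt3a-/- mice. The share of all genes with such a separation was not counted.

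Replicate spread of the members was above the median of all tested genes in MEP and in the double knockout. In MEP the median SD of log2(FPKM + 1) over the 10 genes was 0.583 among WT mice, 0.480 among Dnmt3a-/- mice and 0.436 between the Bcor-/- libraries, against 0.157, 0.128 and 0.0732 over all tested genes. In Bcor-/- LSK it was 0.205 against 0.127, with 8 of the 10 genes above that median. In WT and Dnmt3a-/- LSK, the groups whose difference chose the genes, it was 0.155 and 0.146 against 0.132 and 0.140. The choice bears on the spread within those groups, so nothing is read from their contrast with MEP. In the double knockout it was 2.35 in LSK and 1.87 in MEP, against 0.296 and 0.346.

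The members had similar patterns across libraries. The Pearson r of each member with the mean z-score of the other members over the 10 LSK libraries was between 0.758 for Jund and 0.985 for Fosb. These values describe genes chosen for a shared difference in these libraries. Over the 8 libraries without the double knockout r was lowest for Junb, at 0.606, and Nr4a1, at 0.632. Outside the 10 genes, the patterns most like their mean in LSK were those of Rad9b (r = 0.965), Eif4a2 (0.962), Fndc3a (0.957), Klf6 (0.957) and Zscan18 (0.953). Klf6 is itself an immediate early gene, and its r was 0.960 over the 8 libraries without the double knockout. Klf6 had 140, 104 and 134 FPKM in WT LSK against 442, 519 and 350 with Dnmt3a lost, 84.4 and 95.05 with Bcor lost, and 20.05 and 447 with both lost. In MEP the most similar patterns were those of Numa1 (0.974), Pcnt (0.939), Ier3 (0.938), Tln1 (0.936) and Gse1 (0.920), of which Ier3 is an immediate early gene.

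A list of 46 other immediate early genes, chosen with earlier results of these data known, was followed in the same way. In Dnmt3a-/- LSK 14 of its 42 tested genes stood above WT with no overlap and 0 below, against 4.63% and 4.98% of all tested genes, with a median log2 difference of 0.26 over the list and 0.00 over all genes, in the contrast that chose the members. Klf2, a factor that keeps lymphocytes quiescent, had 34.1, 40.8 and 31.2 FPKM in WT against 168, 198 and 125 in Dnmt3a-/- LSK. It was the only 1 of 39 genes of the list called in Dnmt3a-/- MEP, against 0.201% of all genes called higher, with 4.76, 3.83 and 7.05 against 49.99, 24.1 and 12.7 FPKM (log2 fold change 2.10, SE 0.616, limma adjusted p = 1). Without double knockout replicate 1 or 2 that count was 3, against 0.338% of all genes. In Bcor-/- LSK 7 of the 42 were called lower and 0 higher, against 6.03% of all genes called lower. Gem, a small GTPase, fell by 1.92 on the log2 scale (limma adjusted p = 0.00448) and Id3, an inhibitor of bHLH factors, by 1.21 (adjusted p = 0.0364), and Plk2 and Dusp5 were called lower with adjusted p of 0.146 and 0.140. Without double knockout replicate 1 or 2 the count was 20 lower and 1 higher, against 8.31% of all genes called lower. In Bcor-/- MEP 2 of 39 were called higher and 3 lower, against 1.23% and 1.53% of all genes, with Socs3 at a log2 fold change of 1.35 and Plk2 at -1.23 (limma adjusted p = 0.598 and 0.431). Without double knockout replicate 1 or 2 these counts were 3 higher and 7 lower, against 1.86% and 2.19%.

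In the double knockout the counts of the wider list depended on the library. In LSK 9 of the 42 were called higher, against 15.0% of all genes, and 4 lower, against 13.3%. Ier5l, which is among the 9, and Nr4a3 passed the minimum mean only through the double knockout, as did Dusp4 in MEP, where Egr2 passed only through WT. Ier3 fell by 3.23 on the log2 scale (limma adjusted p = 0.00852), Zfp36l1, which destabilizes AU-rich mRNAs, rose by 1.63 (adjusted p = 0.00105), and Klf2 was called higher by 2.12 (adjusted p = 0.0682). Without replicate 1 the counts were 33 higher and 2 lower, with 20.6% and 19% of all genes, and without replicate 2 they were 5 higher and 24 lower, with 16.7% and 15.5%. Against Bcor-/- LSK 9 were called higher, with 15.8% of all genes, and 2 lower, with 14.8%, and Gem rose by 2.71 (limma adjusted p = 8.64e-05). Without replicate 1 these counts were 35 higher and 1 lower, with 21.4% and 20.8% of all genes, and without replicate 2 they were 4 higher and 12 lower, with 17.5% and 16.3%. In MEP 14 of 39 were called higher than in WT and 0 lower, against 18.5% and 12.4% of all genes. Klf2 rose by 3.36, Socs3, a brake on cytokine signaling, by 2.71, and Trib1 by 2.23 (limma adjusted p = 0.00758, 0.00263 and 0.00608). Without replicate 1 the MEP counts were 28 higher and 1 lower, with 23.4% and 18.3% of all genes, and without replicate 2 they were 12 higher and 11 lower, with 21.8% and 14%.

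Genes next to AP-1 in the pathway were followed as lists as well. Of 22 AP-1 partners and bZIP relatives, 21 were tested in LSK and 18 in MEP, and in Dnmt3a-/- MEP none was called by limma and none had an unadjusted p under 0.05. In Bcor-/- only Jdp2, a repressor that pairs with Jun, was called, higher in LSK (log2 fold change 0.78, limma adjusted p = 0.0324) and in MEP (0.97, adjusted p = 0.721), where 7.2% and 1.23% of all genes were called higher. In double knockout LSK 5 of 21 were called higher and 1 lower, and in MEP 4 of 18 and 1, against 15.0% and 18.5% of all genes called higher and 13.3% and 12.4% called lower. Batf3, 1 of the 5, passed the minimum mean only through the double knockout. Both counts include Atf5, a stress-responsive factor, which rose by 2.32 in LSK and by 2.74 in MEP (limma adjusted p = 0.00277 and 0.0120). Summed over this list, double knockout replicate 1 lay below every WT library and replicate 2 above. The sums were 563 and 1282 FPKM in LSK against 698 to 860 in WT, and 503.5 and 1497 in MEP against 569 to 626. Of 19 kinases and factors upstream, 4 were called in Bcor-/- LSK, with 13.2% of all genes. Rps6ka1 was called higher by 0.62 and Elk4, Mkl2 and Elk1 lower by 0.65, 0.63 and 0.62 on the log2 scale (limma adjusted p = 0.186, 0.0452, 0.0532 and 0.0846). In double knockout LSK 1 was called higher, Elk4, a partner of serum response factor, at a log2 fold change of 1.54 (limma adjusted p = 0.000212), and 1 lower, against 15.0% and 13.3% of all genes. In double knockout MEP 4 were called higher and 1 lower, against 18.5% and 12.4% of all genes. In Dnmt3a-/- MEP and Bcor-/- MEP limma called none, and 0 and 1 had an unadjusted p under 0.05. Of 14 heat shock genes, which respond to another kind of stress, 11 were tested in LSK and 12 in MEP. In Bcor-/- LSK 2 were called higher and 0 lower, against 7.2% and 6.03% of all genes. They were Hsph1 and Hspa5, by 1.02 and 0.95 on the log2 scale (limma adjusted p = 0.0308 and 0.153). Hsph1 rose by 1.22 in Bcor-/- MEP (limma adjusted p = 0.0461), where 1.23% of all genes were called higher. Hspa1b had 8.39 and 6.54 FPKM in Bcor-/- MEP, 0.156 to 0.666 in WT and 1.16, 3.15 and 1.20 in Dnmt3a-/-, and since it passed the minimum mean only through the Bcor-/- libraries it is given without a test. In double knockout MEP 4 of 12 heat shock genes were called lower and 0 higher, against 12.4% and 18.5% of all genes.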

How the data were processed

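Poly(A) RNA of 10 LSK and 10 MEP libraries was sequenced, and the deposited values are FPKM per gene, 1 table per cell type. The submitters' processing notes name STAR 2.5.1b, SAMtools 1.9, Cufflinks 2.2.1 and build mm9; the scaling between libraries is not given in the sources used here. The tables used here hold no counts, so no count model was used. Values were analysed as log2(FPKM + 1), which understates the change of low genes, for genes whose mean FPKM reached 1 in the cell type tested. limma 3.58.1 (R 4.3.3) with a mean-variance trend fitted 1 mean per genotype over all 10 libraries, and p-values were adjusted by Benjamini-Hochberg over all tested genes. LSK minus MEP differences were fitted per mouse (the labels name the mouse of each library). The test script was tested on simulated data. Calls used the unadjusted p under 0.05 and the fold change above 1.5 that the study's methods name. Exact permutation tests were two-sided. Genes named outside the 10 were at most 4 per list and comparison, those called with the largest log2 fold change, plus the 5 genes most correlated with the members; other named genes were chosen after their values were seen. The 10 genes and all lists were chosen with earlier results of these data known. Replicates are separate mice, apart from the pool. Sequences are RefSeq entries of GRCm38.p6 and were matched by symbol. Figures were drawn with matplotlib 3.10.9.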

Additional observations from a re-analysis of the deposited data

Results flagged for a closer look

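A limma test of the difference itself called a different effect of a genotype in LSK and MEP for some of the 10 genes. Each of these calls was a lower effect in LSK when all libraries were used. For Bcor-/- against WT the log2 differences were -1.34 for Fos, -1.31 for Fosb and -0.72 for Dusp1. These 3 were called lower, as were 4.81% of all tested genes, while 10.8% were called in either direction. None of them passed an adjusted p of 0.05, and none was called without pairing by mouse. Dusp1 lost this call under 10 of 20 alternatives, Fosb under 4 and Fos under 3. For the double knockout against WT the differences were -1.76 for Fos, -2.41 for Nr4a1 and -1.09 for Dusp1. There 16.7% of all tested genes were called lower and 28% in either direction. Fos and Dusp1 passed an adjusted p of 0.05 (limma adjusted p = 0.0176 and 0.0415), as did 11.0% of all genes in this direction and 20% in either. The double knockout counts are near the shares in either direction and are not read as a result about the members. Over the alternatives the adjusted p ran from 0.0134 to 0.357 for Fos and from 0.0389 to 0.545 for Dusp1. Dusp1 lost its call under 2 of 20 of them. Without double knockout replicate 1 Atf3 was called with a higher effect in LSK, and without replicate 2 Fosb and Egr1 were called lower in addition. The 3 WT LSK libraries in both are those of the comparison that chose the genes. Markers of LSK cells moved the same way in both tests, with median differences of -1.42 and -2.22. Those of mature erythroid cells moved the other way, with medians of 1.76 and 1.71. The part of either list in the result was not tested. Groups of 2 or 3 libraries are too small for a check of single outlying samples.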

How the results depend on the processing

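In this section counts are of the 10 genes called. A count given without the share of all genes called is not read as a result about the members. With only the genotypes compared in the fit they were 2 in Bcor-/- LSK, 0 in double knockout LSK, 3 in Dnmt3a-/- MEP, 2 in Bcor-/- MEP and 0 in double knockout MEP, each against WT. The shares of all genes called were 16%, 24.2%, 0.814%, 4.1% and 24.6%, in this order. With 1 variance per genotype the counts against WT were 1 in Bcor-/- LSK, 3 in Dnmt3a-/- MEP, 2 in Bcor-/- MEP and 0 in double knockout MEP. The shares of all genes were 16.3%, 0.713%, 4.41% and 18.1%, in this order. In double knockout against Bcor-/- LSK the count was 2, with 22.5% of all genes called. For the LSK-MEP difference of the double knockout it was 1. With an adjusted p the counts were 0 in double knockout LSK, Dnmt3a-/- MEP, double knockout MEP and the difference of Bcor-/-. The shares of all genes with an adjusted p under 0.05 were 29%, 0%, 33% and 0.251%, in this order. Quantile normalization gave 1 in double knockout against Bcor-/- in LSK, 1 in MEP, 1 in Bcor-/- MEP and 4 in double knockout LSK against WT. The shares of all genes were 30.9%, 32%, 2.85% and 29.1%, in this order. A minimum of 5 FPKM or median centring gave 1 in double knockout against Bcor-/- in LSK, where median centring called 32% of all genes. Without a filter or without a trend the count was 0 in double knockout MEP, and with a fold above 2 it was 0 in Dnmt3a-/- MEP. The cause of these changes was not tested.

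With the replicate number as a replicate block the count was 0 in Dnmt3a-/- MEP and 0 in double knockout MEP. Within a cell type, correlations of same-numbered deviations ran from -0.193 to 0.336. Samples with different numbers were not compared, so these values cannot decide whether the numbers pair the samples. With no replicate block, that is without pairing by mouse, the LSK-MEP difference gave 0 for Bcor-/- and 1 for the double knockout.

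Leaving out each library in turn, the counts against WT ranged from 0 to 3 in Bcor-/- LSK, 0 to 9 in double knockout LSK, 0 to 3 in Dnmt3a-/- MEP, 0 to 2 in Bcor-/- MEP and 0 to 6 in double knockout MEP. Double knockout against Bcor-/- ranged from 0 to 9 in LSK and 0 to 8 in MEP, and the differences from 0 to 4 for Bcor-/- and 2 to 5 for the double knockout. With all libraries 13.2%, 28.3%, 0.412%, 2.76% and 30.9% of all genes were called against WT, in the same order. Against Bcor-/- they were 30.6% and 27.9%, and for the differences 10.8% and 28%. These shares moved with the library left out too, from 0.311% to 1.11% in Dnmt3a-/- MEP. The ranges are therefore not read as a result about the members. None of the 11 calls of the fits over all libraries changed sign under an alternative. Among genes not called there, Fosb, Jun, Junb and Atf3 in double knockout LSK and Fosb, Atf3 and Dusp1 in double knockout MEP were called higher than WT without replicate 1 of the double knockout and lower without replicate 2. Depth in reads is unknown, so counting error cannot be given, and 2 libraries per group limit what the Bcor-/- and double knockout comparisons can show.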
